A study of Mus musculus with 23 samples.

Results

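The 10 genes described here, Cdkn1a, Mdm2, Aen, Gdf15, Ccng1, Phlda3, Trp53inp1, Zmat3, Eda2r and Sesn1, are established transcriptional targets of the tumour suppressor p53. They were chosen by symbol, and all 10 were found among the 55401 gene identifiers of the count table and passed the filter on low counts. RNA had been sequenced in bulk from 23 tumour libraries of male C57BL/6 mice aged 8 to 10 weeks. All tumours came from TC2Ras cells, a mouse prostate adenocarcinoma line (TRAMP-C2) given an activated H-ras, implanted under the skin of the flank. Plasmid, 10 µg per muscle, entered the tibialis anterior muscle by ultrasound with microbubbles. The plasmid carried IL-27 with a peptide tail (IL27v, 11 libraries) or was the empty control (EV, 12 libraries). Tumours were then exposed ex vivo to docetaxel (a taxane that stabilises microtubules), cabozantinib (an inhibitor of MET and VEGF receptor kinases), an antibody to PD-L1, IL-27 itself, or IL-27 combined with cabozantinib, or were held in media. The 12 groups had 2 libraries each, but IL27v tumours exposed to IL-27 had 1. The labels do not say that replicates came from separate animals, so p-values reflect only how far these samples spread, and that spread may be technical.

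p53 is a transcription factor held at a low level by MDM2, a ubiquitin ligase that marks it for degradation. When DNA damage or other stress stabilises it, p53 binds paired half-sites in DNA and raises genes that stop the cell cycle, repair damage or trigger cell death, and also Mdm2 itself, which closes a feedback loop. Several of these genes have other inducers: Cdkn1a and Gdf15 respond to further transcription factors and stress pathways.

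RefSeq (GRCm38.p6) promoters, from 250 bases before to 50 after the start site, were held for 8 of the 10 genes, with 12 start sites. They were searched on both strands for the p53 half-site, a motif of 10 bases, and for the full site, a pair of abutting half-sites with up to 2 mismatches outside their cores. The windows below show the full site where 1 was matched, and otherwise the half-sites. Matched bases are in capitals, and each sequence is read 5′ to 3′ on the gene's strand. The upstream Cdkn1a promoter held 2 half-sites, and only the bases around its full site are shown.
Cdkn1a, full site, chr17:29090908-29090967 (+): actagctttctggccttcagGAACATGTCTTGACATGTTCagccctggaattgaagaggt
Aen, half-site, chr7:78895917-78895966 (+): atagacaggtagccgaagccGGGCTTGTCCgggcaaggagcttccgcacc
Mdm2, half-site, chr10:117710915-117710964 (-): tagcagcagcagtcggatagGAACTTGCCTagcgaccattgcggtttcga
Ccng1, half-site, chr11:40755442-40755491 (-): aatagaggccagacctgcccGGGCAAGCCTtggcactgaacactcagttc
Sesn1, half-site, chr10:41887246-41887295 (+): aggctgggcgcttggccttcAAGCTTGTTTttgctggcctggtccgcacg
The Cdkn1a site lies 51 to 32 bases before the upstream start site and has 1 mismatch. A half-site was matched in 6 of the 12 member promoters (50.0%), 2 of which share the Aen site, against 8.356% of 32851 RefSeq promoters. A full site was matched in 1 of the 12 (8.33%), against 0.158% of all. No match was found in the windows of Gdf15, Phlda3 or Eda2r. A match is a description of letters, and binding was not measured.

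Library totals ran from 47641781 to 83088346 counts. Levels are given as CPM, counts relative to the library total after scaling by the TMM method, with 1 CPM standing for 36.3 to 86.5 counts. In 1 library, IL27v docetaxel 1, the ribosomal RNA locus CT010467.1 took 27.2% of counts. Libraries also differed in how expression followed the GC content of genes, with slopes between -0.61 (IL27v media 1) and 0.51 (EV IL-27 1) on the log2 scale per 10 percentage points of GC. Skeletal muscle transcripts, summed over 13 markers, ran from 28.9 to 942 CPM in IL27v libraries and from 1.43 to 546 CPM in EV libraries. Keratinocyte transcripts, summed over 7 markers, reached 2786 and 2487 CPM in the IL27v docetaxel libraries, against 2.30 and 5.27 CPM in the EV docetaxel libraries and 1.33 to 16.3 CPM in media. In bulk tissue, fewer cells of a type and less RNA per cell cannot be told apart.

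Per kilobase of exon, Cdkn1a, which encodes the cyclin-dependent kinase inhibitor p21, had the highest level, 59.1 ± 21.6 CPM per kb (SD, n = 23), above the next gene in 23 of 23 libraries. Ccng1, a cyclin G1 gene that acts in the feedback on p53, followed at 20.6 ± 5.37 CPM per kb and Mdm2 at 19.8 ± 5.57 CPM per kb. This pair did not differ beyond their spread, since Ccng1 was the higher in 14 of 23 libraries. Phlda3 (7.62 CPM per kb), Sesn1 (5.43), Zmat3 (4.14), Aen (3.18) and Eda2r (2.72) formed a middle range. Within it, Phlda3 exceeded Sesn1 in 14 libraries, Sesn1 exceeded Zmat3 in 15 and Aen exceeded Eda2r in 13 of 23. Trp53inp1 averaged 0.97 CPM per kb and Gdf15 0.252 CPM per kb, the lowest of the 10. From the lowest to the highest library, Cdkn1a spanned 3.51-fold and Mdm2 5.37-fold.

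**Figure D1:**
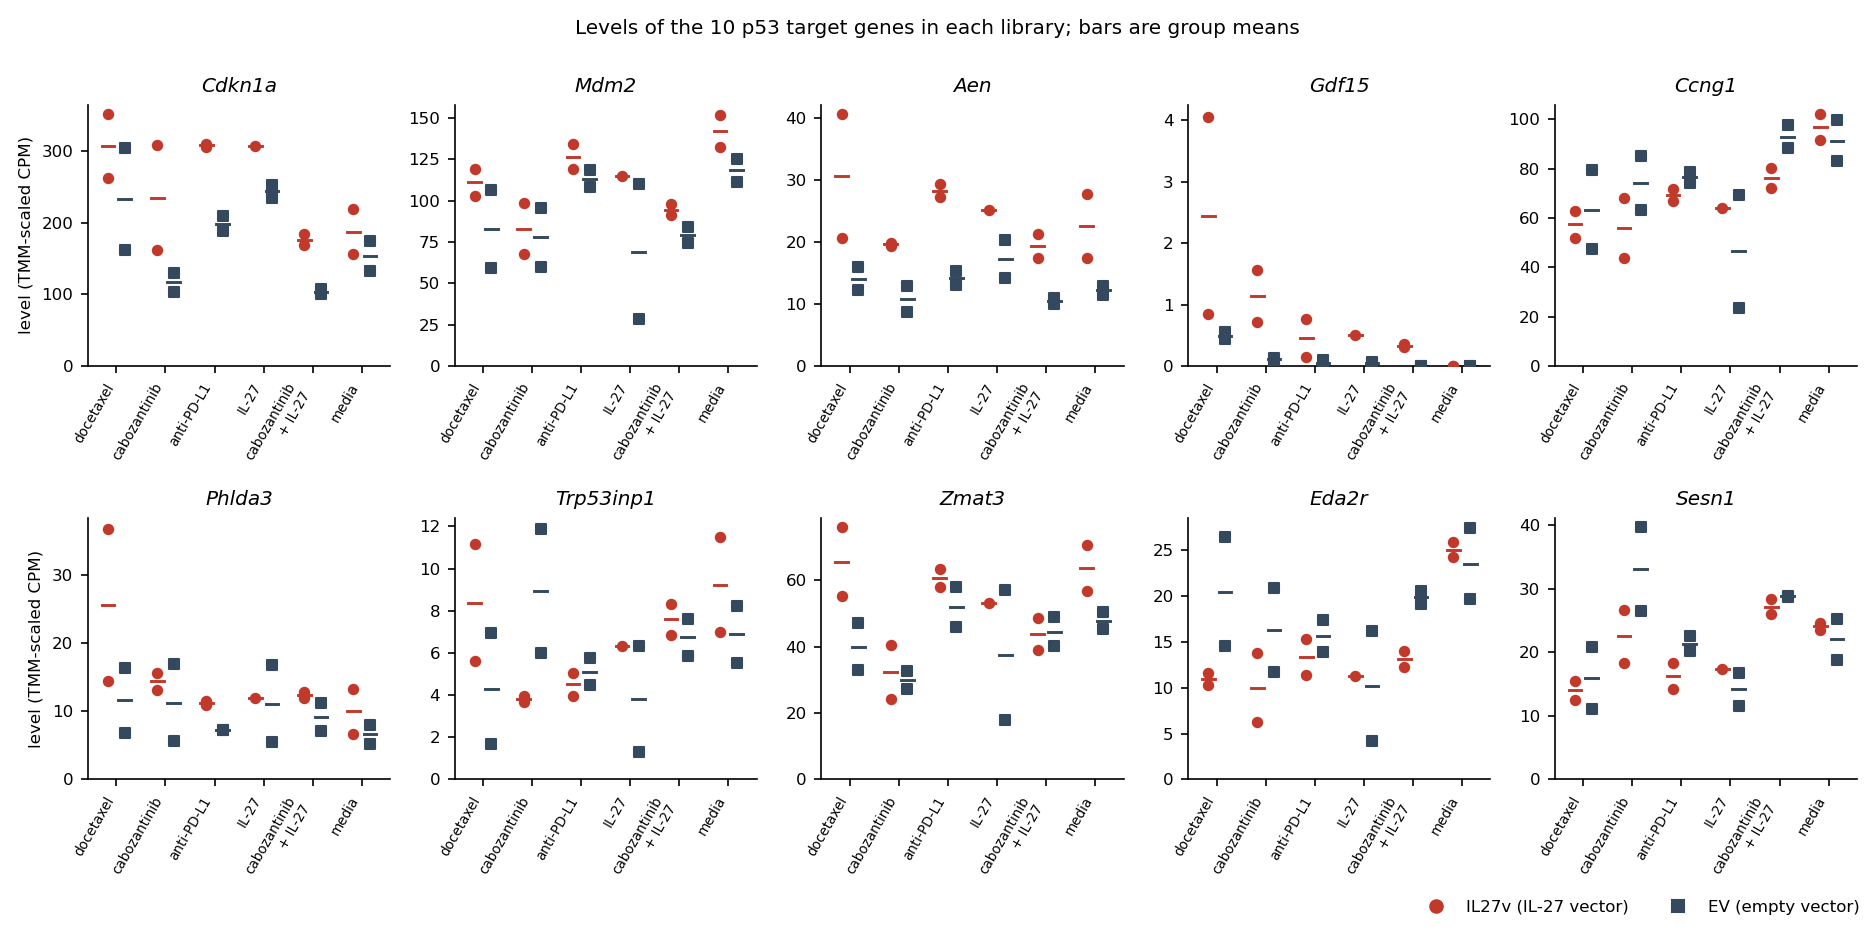
Level of each of the 10 genes (y axis, TMM-scaled CPM) by ex vivo exposure (x axis), with 1 point per library, IL27v in red circles and EV in dark squares, and bars at group means. Gdf15 is at 0 in all 4 media libraries, and Aen is higher in IL27v than in EV under each of the 6 conditions.

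Docetaxel against media asks how the drug moved these genes in the tumour pieces. The cytokine gene Gdf15 rose, and no other member passed the test. Gdf15, a secreted member of the TGF-beta family made under stress, had 4.05 and 0.848 CPM in IL27v docetaxel libraries and 0.551 and 0.447 CPM in EV docetaxel libraries, and 0 CPM in the 2 IL27v media and 2 EV media libraries. These levels rest on 147, 53, 38 and 27 counts under docetaxel and on 0 counts in media. All 4 docetaxel libraries were above all 4 media libraries, as for 5.14% of all genes. The highest was the ribosomal RNA-rich IL27v docetaxel 1. Against a floor of 3 counts per library, the docetaxel mean was at least 36.1-fold higher than media. Within EV the bound was at least 13.4-fold, and with IL27v docetaxel 2 alone it was at least 19.0-fold. The edgeR adjusted p was 0.00866, and no fitted fold change is given because media had no counts. Under the other exposures Gdf15 had 0.155 to 1.57 CPM in IL27v and 0 to 0.135 CPM in EV libraries. In IL27v a level above media was thus not particular to docetaxel, and IL27v cabozantinib 2 (1.57 CPM) exceeded IL27v docetaxel 2. In EV both docetaxel libraries were above every library of the other exposures.

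Of the 10 members, 1 was called higher and 0 lower. Over all 24440 genes 1.79% were called, 1.76% higher and 0.0286% lower. At an unadjusted p under 0.05 there were 5 members, where all genes gave 15.3%. The median log2 fold change was -0.26 over the members and 0 over all genes, so the members did not move one way. Without EV media 1, EV media 2 or IL27v media 1, each left out in turn, Gdf15 was not called (adjusted p up to 0.122). With the groups of this comparison alone in the fit its adjusted p was 0.0554.

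The cell cycle inhibitor Cdkn1a had 262 and 352 CPM in IL27v docetaxel and 162 and 304 CPM in EV docetaxel libraries, against 218 and 156 CPM in IL27v media and 174 and 132 CPM in EV media. Each docetaxel library was above the mean of its own vector's media, but EV docetaxel 1 lay within the media range. The log2 fold change was 0.66 ± 0.24 (SE), with an edgeR adjusted p of 0.186. Phlda3, an inhibitor of AKT signalling, had 36.8 and 14.4 CPM in IL27v docetaxel and 6.85 and 16.4 CPM in EV docetaxel libraries, against 6.66 and 13.3 CPM in IL27v media and 8.02 and 5.22 CPM in EV media. The groups overlapped, and the log2 fold change of 1.08 ± 0.44 did not pass (edgeR adjusted p 0.248). Aen, an apoptosis-enhancing nuclease, gave 0.32 ± 0.26 on the log2 scale.

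The feedback genes were not higher under docetaxel. Mdm2 had 103 and 119 CPM in IL27v docetaxel and 106 and 59.5 CPM in EV docetaxel libraries, against 152 and 133 CPM in IL27v media and 111 and 125 CPM in EV media. Its log2 fold change was -0.43 ± 0.31. Ccng1 had 52.1 and 62.9 CPM in IL27v docetaxel and 79.5 and 47.3 CPM in EV docetaxel libraries, against 102 and 91.6 CPM in IL27v media and 83.1 and 99.5 CPM in EV media. All 4 docetaxel libraries were below all 4 media libraries, as for 3.55% of all genes, yet the log2 fold change of -0.64 ± 0.28 did not pass (edgeR adjusted p 0.284). Sesn1, a sestrin that restrains mTORC1, gave -0.62 ± 0.25, and Eda2r, a receptor of the TNF receptor family, gave -0.70 ± 0.37. Trp53inp1, a nuclear partner of p53 linked to cell death and autophagy, gave -0.41 ± 0.48, and the RNA-binding protein gene Zmat3 gave -0.11 ± 0.29. None of these passed.

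By vector, Gdf15 was called within IL27v (edgeR adjusted p 0.0194), where 2.79% of genes were called. Within EV edgeR called 0% of genes, though 719 had an unadjusted p under 0.05. DESeq2 called 0.131% of genes there, Gdf15 among them. The docetaxel effect itself was not shown to differ between vectors: 0 members passed the interaction test, where 0.0205% of genes did. For Gdf15, with its media libraries all at 0, edgeR gave no usable interaction test.

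Trp53, which encodes p53, had a log2 fold change of 0.31 ± 0.22 under docetaxel (edgeR adjusted p 0.501), and its inhibitor Mdm4 -0.66 ± 0.34 (0.358). Tubb6, a beta-tubulin gene, was higher under docetaxel, with 611 and 596 CPM in IL27v docetaxel and 477 and 774 CPM in EV docetaxel libraries, against 61.2 and 186 CPM in IL27v media and 248 and 245 CPM in EV media. Its log2 fold change was 1.81 ± 0.32 (edgeR adjusted p 0.0116). Under the other exposures Tubb6 ran from 266 to 498 CPM in IL27v libraries and from 105 to 438 CPM in EV libraries.

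Among 34 other p53 targets, edgeR called 5 higher under docetaxel and 0 lower, where 1.76% of all genes were called higher and 0.0286% lower. The median log2 fold change of the 34 was 0.33. DESeq2 called the same 5 and also Btg2, Plk3, Perp, Sesn2 and Fdxr higher, where it called 6.93% of genes. Within EV, edgeR called 0 of the 34, and 0 had an unadjusted p under 0.05, against 0% and 2.94% of all genes. Within IL27v, 7 were called higher and 14 had an unadjusted p under 0.05, against 2.7% and 14.9% of all genes. The interaction test passed 0 of the 34, and 9 had an unadjusted p under 0.05, against 0.0205% and 6.15% of all genes. A difference between the vectors was thus not shown at the adjusted threshold. The arrest genes Sfn (14-3-3 sigma), Gtse1 and Gadd45a gave log2 fold changes of 4.87 ± 0.72, 1.23 ± 0.24 and 1.04 ± 0.24. Bbc3, which encodes the cell death protein PUMA, gave 3.52 ± 0.77, and Ddit4, an inhibitor of mTORC1, gave 1.13 ± 0.22. Their edgeR adjusted p values were between 0.00657 (Sfn) and 0.0372 (Gadd45a). All 4 docetaxel libraries were above all 4 media libraries for each of these genes, as for 5.14% of all genes. For each of them, every IL27v library of the other exposures was also above both IL27v media libraries. In IL27v a level above media was thus not particular to docetaxel, though Sfn was far higher under docetaxel. In EV, both docetaxel libraries were above every library of the other exposures for Bbc3 and Ddit4, but not for Sfn, Gtse1 or Gadd45a. Leaving out EV media 1 or EV media 2 ended each of the 5 calls, with adjusted p values of up to 0.105 for Sfn and 0.249 for Gadd45a. Without IL27v media 1 or IL27v docetaxel 1, Gtse1, Bbc3, Ddit4 and Gadd45a were not called either, and 18 of 23 such fits kept Bbc3, 19 Gtse1, 17 Ddit4 and 11 Gadd45a. The size of the Bbc3 change rested on IL27v media 2. Without it the IL27v media level was 0 CPM, so the fitted log2 fold change of 6.28 is not a measured size. Over the 23 fits the lowest was 3.00. The cell death gene Bax gave 0.97 ± 0.49 and did not pass. Of 5 DNA repair and nucleotide supply genes 0 were called, and all 5 had a negative log2 fold change. Of 13 genes for p53 and its regulators, 1 rose, Cdkn2a (2.47 ± 0.50, edgeR adjusted p 0.0204), whose ARF product inhibits MDM2. Cdkn2a was called in 18 of 23 fits that left out a library, and lost without EV media 1, EV media 2, EV docetaxel 2, IL27v media 1 or IL27v docetaxel 1 (adjusted p up to 0.191). Of 14 cell cycle genes that p21 is known to lower, edgeR called 0, with 7 positive and 7 negative log2 fold changes. DESeq2 called Plk1 and Mybl2 of these higher and Top2a lower. Of 9 genes of the integrated stress response edgeR called 0, while DESeq2 called Trib3 higher and Vldlr lower.

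Sfn had 212 and 266 CPM in IL27v docetaxel and 2.19 and 5.72 CPM in EV docetaxel libraries, against 0.505 and 1.55 CPM in IL27v media and 0.963 and 1.17 CPM in EV media. The IL27v docetaxel libraries, which were far above the rest, also held the most keratinocyte transcripts. The part of those transcripts in the Sfn result was not tested. Bbc3 had 5.71 and 3.25 CPM in IL27v docetaxel and 2.51 and 5.07 CPM in EV docetaxel libraries, against 0 and 0.16 CPM in IL27v media and 0.98 and 2.09 CPM in EV media. Its IL27v media libraries were the lowest of these. Under the other exposures Bbc3 had 2.10 to 4.31 CPM in IL27v and 0.142 to 1.39 CPM in EV libraries. Ddit4 had 113 to 168 CPM there in IL27v and 38.2 to 88.0 CPM in EV libraries. Its levels were 131 and 171 CPM in IL27v docetaxel, against 48.8 and 40.7 CPM in IL27v media. The part of low IL27v media levels in the docetaxel calls was not tested.

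**Figure D2:**
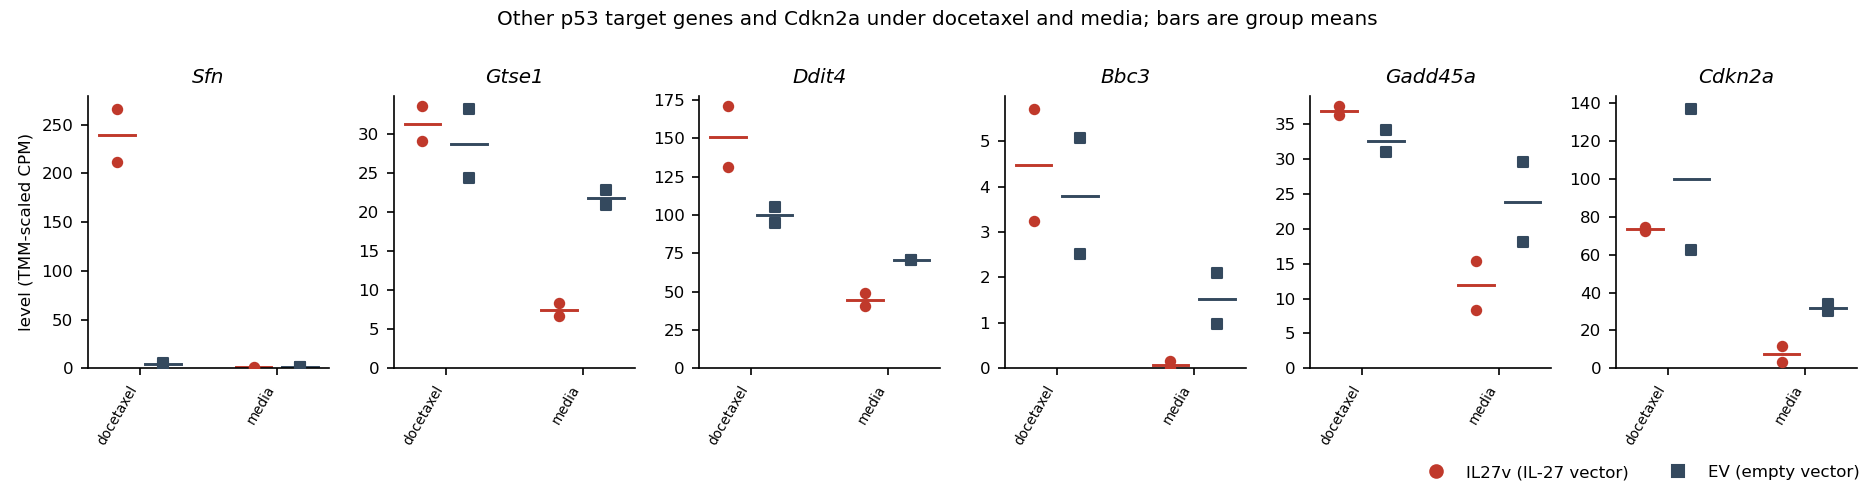
Level (y axis, TMM-scaled CPM) of 5 other p53 targets and of Cdkn2a under docetaxel and in media (x axis), with 1 point per library, IL27v in red circles and EV in dark squares, and bars at group means. Every docetaxel library is above every media library in each panel, and Sfn reaches 212 and 266 CPM in the IL27v docetaxel libraries. Libraries of the other exposures are not shown.

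The vector comparison asks how IL-27 delivered to the mouse moved these genes in the tumours, over all 6 ex vivo conditions. By edgeR Aen and Cdkn1a rose in IL27v tumours, and 7 others did not pass. For Gdf15, with whole groups at 0, edgeR gave no usable test, while DESeq2 called it higher. Of the 10 members 2 were called higher and 0 lower. Over all genes 2.95% were called, 2.28% higher and 0.671% lower. The median log2 fold change was 0.32 over the members and 0.01 over all genes.

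Aen ran from 17.4 to 40.5 CPM in IL27v libraries (median 21.3, n = 11) and from 8.68 to 20.4 CPM in EV libraries (median 12.9, n = 12). Under each of the 6 conditions every IL27v library was above every EV library, a pattern held by 0.323% of all genes, though across conditions EV IL-27 2, at 20.4 CPM, overlapped the IL27v range. The log2 fold change was 0.88 ± 0.15 (edgeR adjusted p 0.00537), and leaving out any single library kept the call in 23 of 23 fits. In the 3 EV libraries with at least 100 CPM of muscle transcripts, a bound set after seeing the data, Aen had 10.1 to 13.01 CPM, against 8.68 to 20.4 CPM in the other 9 EV libraries. In the IL27v library with little muscle RNA, IL27v docetaxel 1, it had 40.5 CPM. With muscle transcripts as a term the log2 fold change was 1.16 (adjusted p 0.0552).

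Cdkn1a ran from 156 to 352 CPM in IL27v libraries (median 262) and from 100 to 304 CPM in EV libraries (median 168), so the groups overlapped. IL27v had the higher mean under all 6 conditions, and in 4 of these no library overlapped. Mdm2, which was not called, had the same pattern, and its share among all genes was not taken. Cdkn1a gave a log2 fold change of 0.57 ± 0.14 (edgeR adjusted p 0.0360). The call held in only 6 of 23 fits that left out 1 library, with an adjusted p of up to 0.0836, and the log2 fold change then stayed between 0.48 and 0.64. Muscle transcripts moved with the vector: all 13 muscle markers rose in IL27v, and with them as a term Cdkn1a gave 0.58 (adjusted p 0.216). Of 5 erythroid markers tested, 4 also rose in IL27v, and the sum over the 6 listed ran from 20.7 to 1576 CPM in IL27v libraries and from 10.1 to 81.3 CPM in EV libraries. The part of erythroid transcripts in the Aen and Cdkn1a results was not tested.

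Mdm2 ran from 67.6 to 152 CPM in IL27v libraries and from 28.2 to 125 CPM in EV libraries, with a log2 fold change of 0.32 ± 0.19. Zmat3 gave 0.32 ± 0.18, Phlda3 0.54 ± 0.26 and Trp53inp1 0.15 ± 0.28. Sesn1 gave -0.13 ± 0.15, Ccng1 -0.07 ± 0.17 and Eda2r -0.36 ± 0.22. Gdf15 had a median of 0.505 CPM in IL27v libraries and of 0.0602 CPM in EV libraries, and it was above 0 in 9 IL27v and 7 EV libraries. The highest Gdf15 level in an EV library was 0.551 CPM, and 5 of 11 IL27v libraries exceeded it. DESeq2 called 3 members for the vector, Cdkn1a, Aen and Gdf15 (adjusted p 0.000281 for Gdf15), where it called 8.03% of genes. Between vectors in media alone, edgeR called 0% of genes; 2209 had an unadjusted p below 0.05, and 803 were calls of DESeq2. Under docetaxel edgeR called 0 members and 0.27% of genes, and DESeq2 called 1 member, Aen, and 3.28% of genes.

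Of the 34 other p53 targets, 4 rose in IL27v and 0 fell, where 2.28% of all genes were called higher and 0.671% lower. Their median log2 fold change was 0.00, and with the GC trends of libraries removed 2 were higher and 2 lower. Ddit4 gave 0.75 ± 0.13 and Gadd45a 0.58 ± 0.14. Sfn gave 2.06 ± 0.38 and Perp, a desmosome protein gene, 1.97 ± 0.49, and among the regulators the p53 relative Trp63 also rose. Sfn, Perp and Trp63 were highest in the 3 libraries with the most keratinocyte transcripts, IL27v docetaxel 1, IL27v docetaxel 2 and IL27v anti-PD-L1 1, and the part of those transcripts was not tested. Ddit3, a stress-response transcription factor gene that can lead to cell death, fell by 1.11 ± 0.21 on the log2 scale (edgeR adjusted p 0.00879). With single libraries left out, Ddit4, Sfn and Ddit3 kept their calls in 23 of 23 fits, Trp63 in 11, and Gadd45a and Perp in 5 each. Trp53 itself gave 0.05 ± 0.13.

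The 4 other exposures shared their media libraries with docetaxel, so the comparisons are not independent of each other. By edgeR 0 members were called in each of them, where 0% of genes were called for cabozantinib, anti-PD-L1 and IL-27 and 0.00409% for cabozantinib plus IL-27. Unadjusted p under 0.05 was reached by 2570, 1429, 2907 and 1092 genes in that order, and DESeq2 called 63 genes in the last. In the first 3 DESeq2 called Gdf15 and 1.21%, 0.43% and 2.53% of genes. Gdf15 had 0.714 and 1.57 CPM in IL27v cabozantinib and 0.135 and 0.104 CPM in EV cabozantinib libraries, and 0 CPM in media. It was at 0 counts in both EV cabozantinib plus IL-27 libraries and in EV anti-PD-L1 2, and for that combination edgeR gave no usable test of Gdf15. Cdkn1a had 305 and 309 CPM in IL27v anti-PD-L1 and 209 and 188 CPM in EV anti-PD-L1 libraries, and gave 0.54 ± 0.24 over media. Under ex vivo IL-27 Eda2r gave -1.18 ± 0.43 and Ccng1 -0.78 ± 0.32, neither past the test. EV IL-27 1 had the lowest level of Mdm2 (28.2 CPM), Ccng1 (23.6), Zmat3 (17.8) and Eda2r (4.16) of all 23 libraries.

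The members did not vary as a single group over the 23 libraries. Cdkn1a ranked with Aen (Spearman rho 0.59) and Gdf15 (0.575) and against Sesn1 (-0.822), Ccng1 (-0.651) and Eda2r (-0.624). These are descriptions over libraries that differ in depth and GC slope, which all genes of a library share. The 4 members with a GC content above 50%, Gdf15, Phlda3, Aen and Cdkn1a (54.4 to 61.7% GC), correlated positively in 6 of 6 pairs. The 6 below 50% (37.4 to 47.6% GC) did so in 13 of 15 pairs, and of the 24 mixed pairs 19 were negative. The 4 members above 50% ranked higher in libraries with a higher GC slope (rho 0.382 to 0.765), and the other 6 had a negative rho (-0.861 to -0.34).

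**Figure D3:**
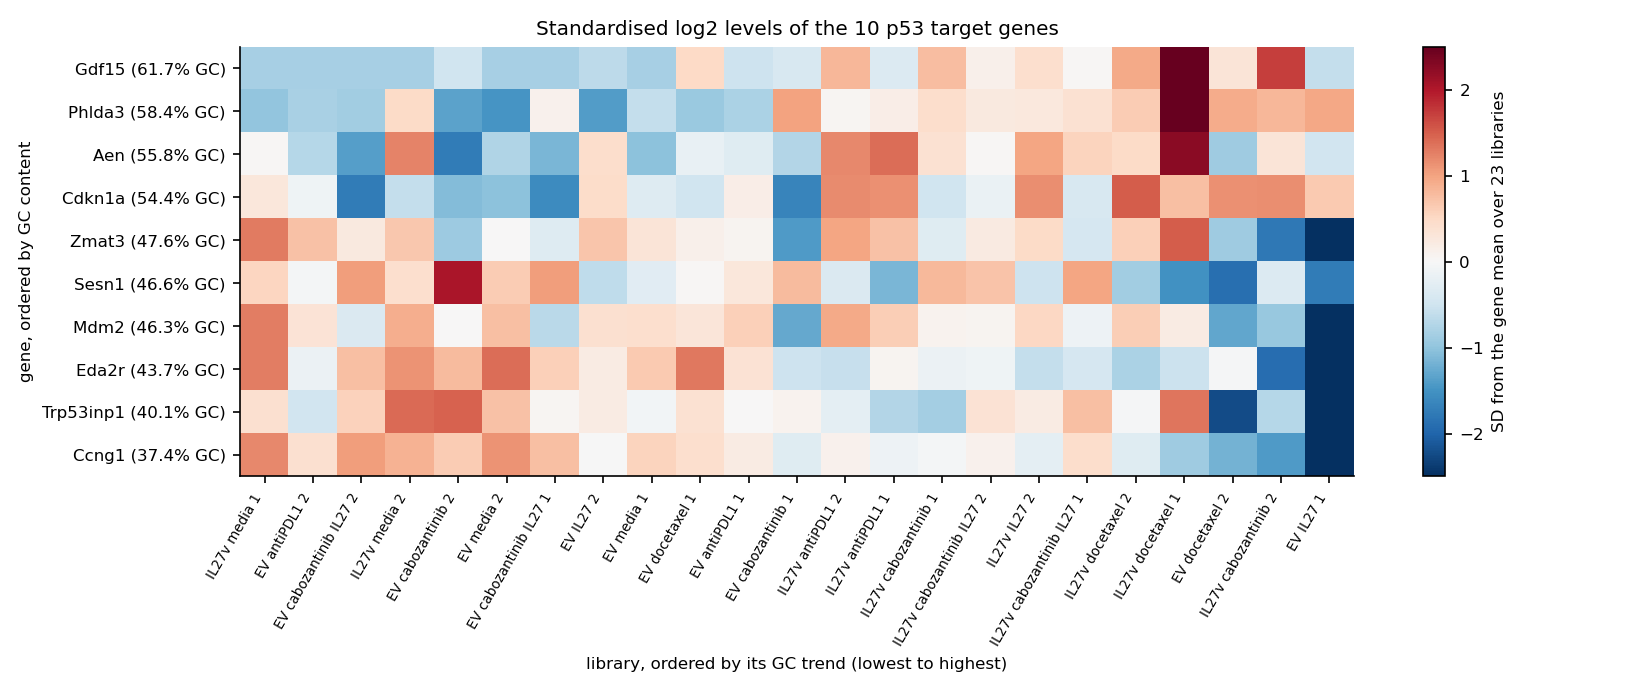
Standardised log2 level of the 10 genes (rows, by GC content) in the 23 libraries (columns, by GC slope from lowest to highest). Red is above and blue below the gene's mean. The 4 upper rows, above 50% GC, turn from blue to red from left to right, and most lower rows turn the other way.

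GC slopes also moved with the groups. They lay between -0.03 and 0.33 in docetaxel libraries and between -0.61 and -0.10 in media libraries, with no overlap. Across vectors they overlapped, with a median of 0.11 in IL27v and of -0.13 in EV libraries. With each library's GC trend removed by an offset, an alternative chosen after seeing the data, all 10 docetaxel fold changes moved towards 0. Cdkn1a then gave 0.23 ± 0.23 and Phlda3 0.17 ± 0.33 under docetaxel, Aen turned to -0.21 ± 0.26, and Gdf15 stayed called (edgeR adjusted p 0.0223). Of the 5 other targets called under docetaxel, Sfn alone stayed called (3.84 ± 0.58), while Gadd45a gave 0.13, Ddit4 0.24, Gtse1 0.83 and Bbc3 1.78. Cdkn2a gave 1.54 (adjusted p 0.0529) and was not called. For the vector, Aen stayed called (0.60 ± 0.16, edgeR adjusted p 0.0292) and Cdkn1a did not (0.36 ± 0.14, adjusted p 0.121). Ddit4 (0.45, adjusted p 0.0804) and Gadd45a (0.20) were not called either. Of the 34 other targets Sfn (1.67) and Perp (1.87) were then called higher in IL27v. Plk3, a stress-response kinase gene (-0.61, adjusted p 0.0188), and Abhd4 (-0.69, adjusted p 0.0106) were called lower, and the median of the 34 was -0.14. An offset of this kind also removes any change that truly follows GC content, and the 2 cannot be told apart here.

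**Figure D4:**
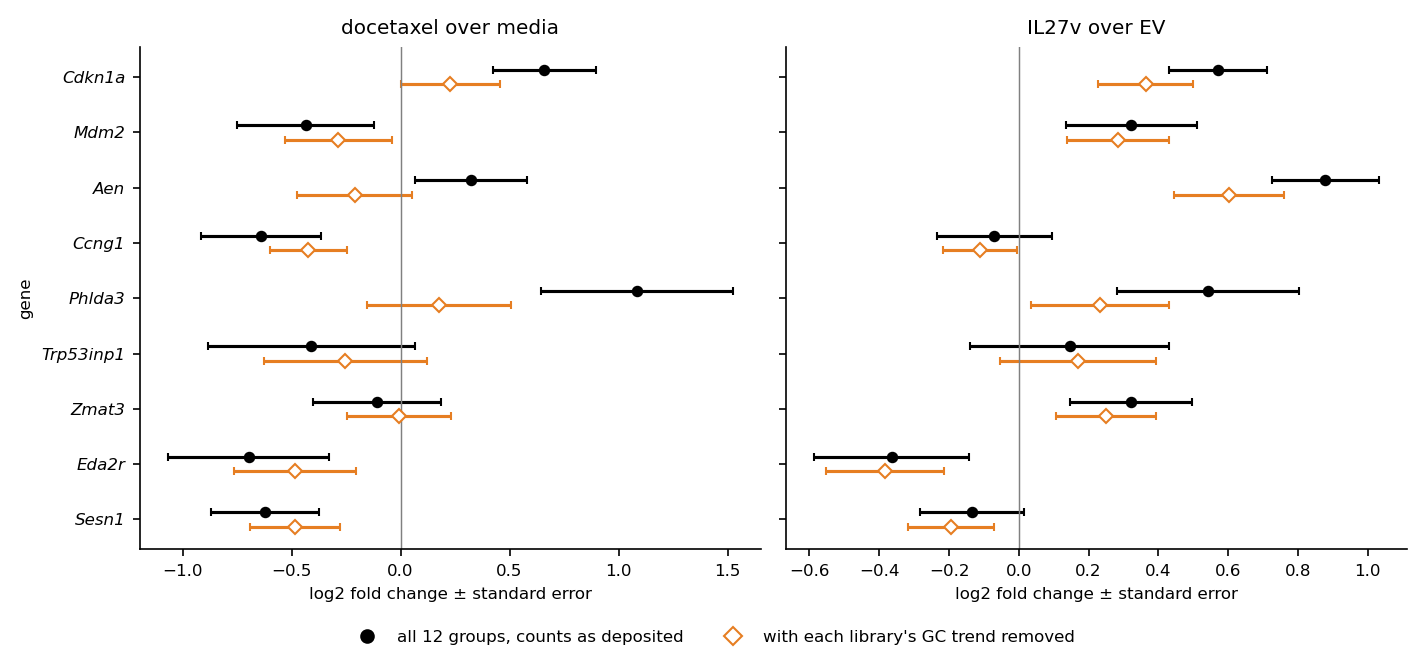
Log2 fold change ± standard error (x axis) of 9 members (y axis) for docetaxel over media (left) and IL27v over EV (right), from counts as deposited (black circles) and with the GC trend of each library removed (open diamonds). Gdf15 is left out because its media libraries had 0 counts. Under docetaxel Phlda3 moves from 1.08 to 0.17, and for the vector Aen moves from 0.88 to 0.60.

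The genes outside the lists whose levels ranked most like the mean standardised level of the 10 members over 23 libraries, among genes with a mean of at least 1 CPM, were Lats2 (Spearman rho 0.942), Usp42 (0.853), Sema3c (0.851), Tada2b (0.841) and Srgap1 (0.835).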

How the data were processed

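Per the labels, stranded poly(A) libraries were made from tumour sections whose RNA integrity number was 8 or more. The submitters' processing notes name build GRCm38 and the tools HISAT2, StringTie, cutadapt and DESeq2, with versions not given in the sources used here. The authors deposited estimated counts per gene as whole numbers, which are not plain fragment counts, since for 143 genes 1 nonzero value recurs in each of the 23 libraries. Strand use in counting is not given, so overlapping genes are uncertain. Symbols and GRCm38 coordinates came from GENCODE M21, which named 55141 identifiers.

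Counts were fitted in R 4.3.3 with edgeR 4.0.16 (TMM, filterByExpr, quasi-likelihood test, 24440 genes) in 1 model of the 12 groups with 11 residual degrees of freedom. The procedure was tested on simulated data. The docetaxel effect is the mean over both vectors, and the vector effect the mean over 6 conditions. Calls used a Benjamini-Hochberg adjusted p under 0.05 over all genes, and standard errors are the absolute log2 fold change over the square root of F. Floors of 3 counts cover counting error only. Named were all 10 members, list genes called in the docetaxel or vector comparison, and genes fixed by name. The members and lists were chosen with earlier results of these data known. Titles assigned the 3 ex vivo IL-27 samples, whose descriptions repeat 1 library name. Alternatives were DESeq2 1.42.0, RLE factors, other filters, a replicate block, additive models, fits on fewer libraries and, added after seeing the data, a GC offset (smoother of span 0.3) and a fit without 2 libraries.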

Additional observations from a re-analysis of the deposited data

Results flagged for a closer look

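By the edgeR interaction test, 0 members passed for any of the 5 exposures, which does not show that their responses were alike. For Gdf15, with whole groups at 0, this test was not usable. Gdf15 had 24 and 23 counts in IL27v cabozantinib plus IL-27 libraries and 0 in both EV ones, and 0 in all 4 media libraries. For cabozantinib plus IL-27, 5 of 80 list genes had a response over media that differed between the vectors by the edgeR interaction test. Of all 24440 genes tested, 358 did. The log2 difference, IL27v response minus EV response, was 6.68 for Bbc3, 3.90 for Fdxr, 2.69 for Gadd45a, 2.54 for Trib3 and 2.30 for Gtse1. It was also positive for these 5 genes under each other exposure, with the same media libraries, though 0 of 80 list genes were called there. Bbc3 gave 7.57 for cabozantinib, 4.44 for docetaxel, 6.07 for anti-PD-L1 and 6.59 for IL-27. Gtse1 gave 2.15, 1.67, 2.25 and 1.63 in that order. Bbc3 had 2.10 and 2.31 CPM in IL27v cabozantinib plus IL-27 libraries and 0.55 and 0.23 CPM in EV ones, against 0 and 0.16 CPM in IL27v media and 0.98 and 2.09 CPM in EV media. Gadd45a had 58.0 and 65.3 CPM in IL27v and 18.4 and 20.0 CPM in EV under this exposure. Its media levels were 8.40 and 15.4 CPM in IL27v and 18.2 and 29.5 CPM in EV. These genes were named after their values were seen. All 5 have a GC content above 50%, from 54.6% (Gtse1) to 68.0% (Bbc3). IL27v media 1, one of their reference libraries, had the lowest GC slope of all libraries (-0.61). Neutrophil transcripts, summed over 8 markers, were 53.5 and 50.4 CPM in IL27v media and 45.1 and 43.2 CPM in EV cabozantinib plus IL-27. They were 2.10 and 0.69 CPM in EV media and 4.37 and 2.97 CPM in IL27v cabozantinib plus IL-27. Ngp among them had 14.1 to 18.8 CPM in the first 2 groups and EV anti-PD-L1 2, and at most 0.12 CPM elsewhere. Those 2 groups are both subtracted in this interaction test. The part of GC slopes or of neutrophil transcripts in these differences was not tested.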

How the results depend on the processing

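Of 188 member values under settings other than leaving out 1 library, 178 kept their direction and their side of the threshold. The number of members called under docetaxel over media, 1 with all libraries, was 0 with a filter of 1 CPM in 4 libraries (which removed Gdf15), in the additive model and with only the groups compared, and 0 to 1 when each library was left out. Within IL27v it was 0 under that filter, with only the groups compared, with the GC offset and without the 2 libraries IL27v docetaxel 1 and EV IL-27 1, and 0 to 1 when 1 library was left out. Within EV it was 1 by DESeq2 and 1 with no filter. For the vector, 2 with all libraries, it was 3 by DESeq2 and in the additive model (Cdkn1a, Aen and Gdf15). It was 1 under the replicate block and under the GC offset, and 0 with muscle transcripts as a term. The vector count changed in 18 of 23 fits that left out 1 library. Under docetaxel the vector count was 1 by DESeq2. Counts for cabozantinib, anti-PD-L1 and IL-27 were each 1 by DESeq2 and 1 with no filter. When 1 library was left out they were 0 to 1 for cabozantinib and 0 to 5 for IL-27, with 5 (Mdm2, Gdf15, Ccng1, Zmat3 and Eda2r) without EV IL-27 2. Aen turned to -0.21 under docetaxel with the GC offset, and Trp53inp1 to -0.053 for the vector without the 2 libraries. When 1 library was left out, Aen under docetaxel ran from -0.0035 to 0.53, and for the vector Ccng1 ran from -0.21 to 0.0934 and Trp53inp1 from -0.0231 to 0.40. Except where a filter or fewer samples shows it, the cause was not tested. Over 55 pairs of groups, the correlation of deviations between same-numbered libraries ran from -0.67 to 0.52, with a median of 0.012 and 13 over 0.1. This range cannot show whether replicate numbers paired samples. Under the replicate block Cdkn1a gave 0.56 for the vector (adjusted p 0.0545). With 2 libraries per group, small changes within a group cannot be resolved.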
